A study of Mus musculus with 5 samples.

Results

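Respiratory complex I is the entry point of the mitochondrial electron transport chain, and 36 genes named as its nuclear-encoded subunits were examined in the livers of db/db mice given vehicle or SR4. The genes were taken by symbol from the deposited gene table. All 36 were found among 11048 genes with a symbol, and all 36 were among the 10542 genes with enough reads to be tested. The rule used gene names and no measured value, though the set was proposed with earlier results of these data known.

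The study sequenced RNA from 5 liver samples of db/db mice, which become obese and diabetic because their leptin receptor is defective. After 1 week of acclimatization, mice were gavaged for 5 weeks with vehicle (3 samples) or with SR4 at 10 mg/kg (2 samples). The series title calls SR4 a fatty acid-activated proton transporter, and mitochondrial function and energy balance are among the stated interests. The db/db genotype comes from the design text and is shared by both groups, so there was no lean or non-diabetic group. The genotype labels of the samples themselves give only the treatment, and no age or sex is given. Whether each sample is a separate animal is not stated, and p-values therefore cover only the spread among the 5 samples, part of which may be technical.

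Complex I takes electrons from NADH, passes them along a chain of iron-sulfur clusters to ubiquinone, and pumps protons across the inner mitochondrial membrane. It is L-shaped. The N module at the tip of the matrix arm oxidizes NADH, the Q module below it reduces ubiquinone, and the proximal and distal parts of the membrane arm hold the proton pumps. Core subunits carry the catalysis and have bacterial relatives, while accessory subunits surround and stabilize them. The liver uses the complex to re-oxidize NADH made by fatty acid and amino acid breakdown.

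Values below are normalised counts, that is, the deposited library-size-adjusted read counts divided by a factor that makes the libraries comparable (trimmed mean of M values, TMM). Differences are on the log2(value + 1) scale, SR4 minus vehicle, and were fitted with limma over all 10542 genes. A gene was called at a Benjamini-Hochberg adjusted p under 0.05. Library sizes estimated from the deposited values ran from 22880000 to 28110000 reads (rounded). The lowest value of any subunit gene in any library was 114, so counting error was small for most of them. All 8 hepatocyte markers were in the table, with summed levels of 1991610 to 2654150 in vehicle and 2289350 to 2827600 in SR4.

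None of the 36 complex I subunit genes was called (0 of 36), where 140 of 10542 genes, or 1.33%, were called in the whole table. The smallest limma adjusted p among the subunits was 0.103, for Ndufa8. At an unadjusted limma p under 0.05, 3 subunits were higher (Ndufs3, Ndufb5 and Ndufb11) where 10.2% of all genes were. On the lower side there was 1 (Ndufa8), where 11.1% of all genes were. On the higher side the share of the subunits was close to that of the whole table, and on the lower side it was below.

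The fitted difference was above 0 for 26 subunits (22 with libraries scaled to equal totals, without TMM), against 49% of all genes, and below 0 for 10. The median difference was 0.17 on the log2 scale, where the median of all genes was -0.01. With equal totals the median was 0.05 for the subunits and -0.13 for all genes. The subunits stood 0.17 above the median of all genes under either scaling. A change of scaling shifts all genes nearly alike, so it could not have altered this distance. Without SR4 library 2 the distance was -0.04. Both SR4 libraries lay above all 3 vehicle libraries for 9 subunits, where 21.1% of all genes did. Both lay below for 1 subunit, where 20.4% of all genes did, and the groups overlapped for 26. With equal totals, 1 subunit lay above (Ndufs3) and 2 lay below (Ndufa6 and Ndufa8), so 3 of 36 were outside the vehicle range where 43.9% of all genes were.

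**Figure D1:**
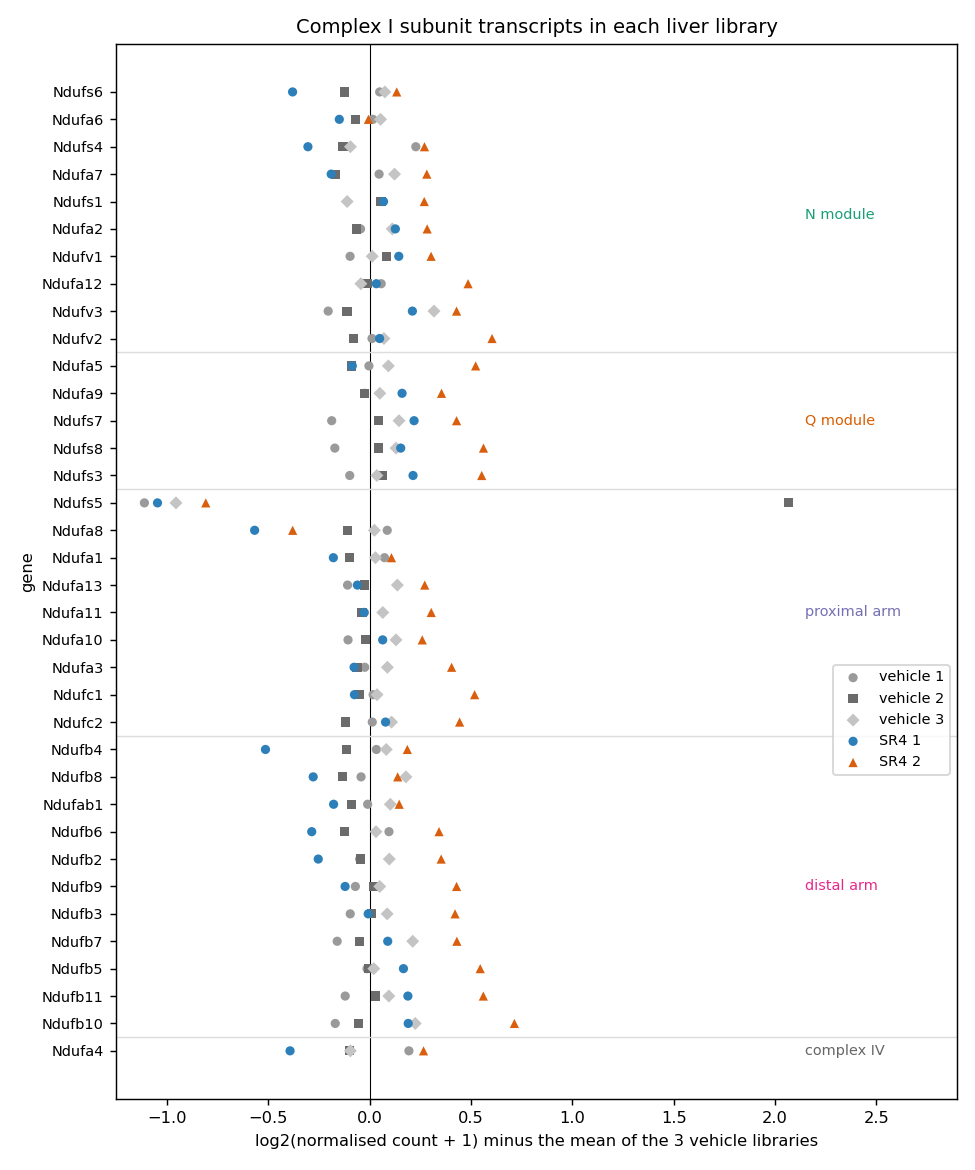
Level of each of the 36 genes in each library, as log2(normalised count + 1) minus the mean of the 3 vehicle libraries (x axis), by module (y axis). Grey symbols are vehicle libraries, the circle in blue is SR4 library 1 and the orange triangle SR4 library 2, which is the highest of the 5 libraries for 32 genes. In the Ndufs5 line, vehicle library 2 stands apart from the other 4 libraries.

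The 2 SR4 libraries differed from each other across the whole complex. SR4 library 2 was above SR4 library 1 for 36 of 36 subunits, where 49.3% of all genes were, with a median difference of 0.38 and a range from 0.14 to 0.70 on the log2 scale. SR4 library 1 alone had a median of -0.04 against the vehicle mean, with 16 subunits above 0 and 20 below. SR4 library 2 alone had a median of 0.35, with 33 above 0 and 3 below. These values share the same 3 vehicle libraries, whose own medians were -0.02, -0.05 and 0.08 (SD 0.07). The median of SR4 library 1 lay within the spread of the vehicle libraries and that of SR4 library 2 did not. The direction of the group median thus rests on SR4 library 2, since without it the median was -0.04, with 16 subunits above 0. Across both directions, 4 subunits had an unadjusted limma p under 0.05, where 21.4% of all genes did. That count was 17 without SR4 library 1 (21.5% of all genes), 3 without SR4 library 2 (13.3%), 1 without vehicle library 1 (16.7%), 2 without vehicle library 2 (16.6%) and 1 with equal totals (23.3%), and 0 subunits were called in each.

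**Figure D2:**
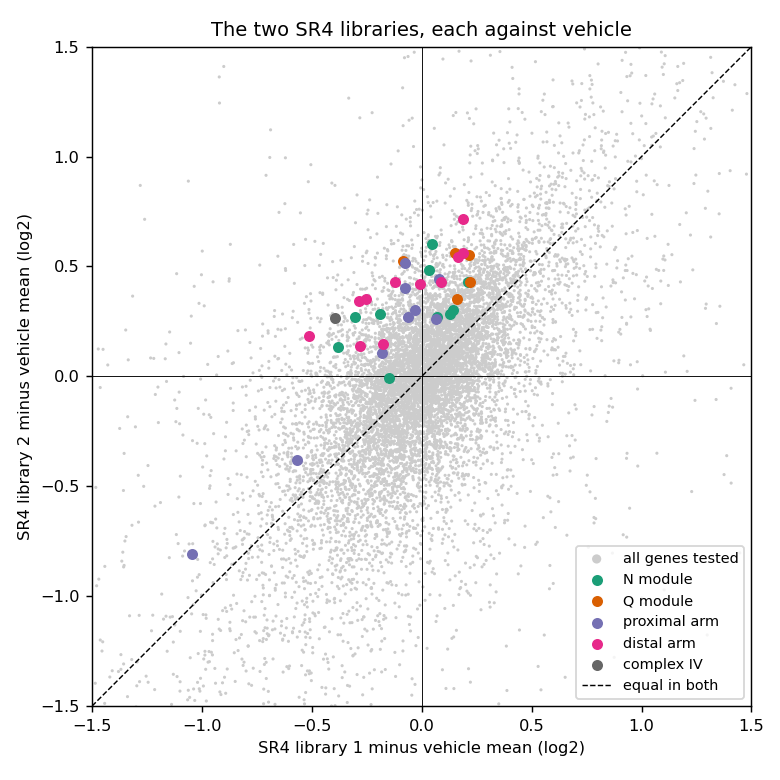
Each point is a gene, placed by its log2 difference from the vehicle mean in SR4 library 1 (x axis) and SR4 library 2 (y axis), and both axes use the same 3 vehicle libraries. All 36 coloured subunits lie above the dashed line of equal values, while grey points (all genes tested) lie on both sides. The axes end at 1.5 in each direction, with 492 tested genes and 0 subunits outside.

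Several measured features also differed between the SR4 libraries. The hepatocyte marker sum was 2827600 in SR4 library 1 and 2289350 in SR4 library 2, with 1991610 to 2654150 in vehicle. Summed over the 6 of 8 macrophage and Kupffer cell markers in the table, SR4 library 2 had the lowest level, 2092 against 4185 to 6326 in the other libraries. The sum over the 7 endothelial markers, all in the table, was also lowest there, with 3498 against 4277 to 6006. The sum over all 7 stellate cell and fibroblast markers was 6129, against 7356 to 12496 in the other libraries. The sum over all 5 erythroid markers was 10577 in SR4 library 2 and 12528 in SR4 library 1. Both were below the vehicle libraries, which had 15672 to 22051. By limma, 1 of the 5 erythroid markers was called lower (Hbb-bs, -1.17, adjusted p = 0.0334) and 1 of the 8 hepatocyte markers higher (Tat, adjusted p = 0.0334), and none of the macrophage, endothelial or stellate markers was called. None of the 6 lymphocyte markers was in the table. In bulk RNA, fewer cells of a type and less RNA per cell cannot be told apart.

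The subunit transcripts are also short, with a median length of 772.5 bases and 25 of 36 under 1000 bases. Among 837 other genes under 1000 bases, SR4 library 2 was above SR4 library 1 for 71.6%, with a median difference of 0.17. Among 8914 other genes of 1000 bases or more it was above for 46.6%, with a median of -0.03. Among the 2844 other genes that lie in the subunits' range of both length and level, the share was 58.7% and the median 0.05. The subunits' median was 0.38. The 2844 genes share only the outer limits of length and level with the subunits, and the 837 short genes were not chosen by level. These sets are therefore not matched to the subunits. The part of transcript length and of the cell markers in the result was not tested.

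Core subunits bind the flavin, hold the iron-sulfur clusters or shape the quinone site. All 6 core members had a fitted difference above 0, and for 5 of 6 both SR4 libraries lay above the vehicle range (21.1% of all genes). With equal totals this held for 1 of 6, Ndufs3. Their median was 0.32, with 0.15 in SR4 library 1 alone and 0.49 in SR4 library 2 alone. None was called.

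Ndufs3, a core Q module subunit that links the matrix arm to the quinone site (chromosome 2, 90894634 to 90904827, GRCm38), had 2217, 2480 and 2433 normalised counts in vehicle libraries 1, 2 and 3, and 2753 and 3483 in SR4 libraries 1 and 2. Both SR4 libraries were above every vehicle library, and the second was the further away. The means were 2377 ± 140 (SD, n = 3) and 3118 ± 516 (SD, n = 2), and the log2 difference was 0.38 with a standard error of 0.14 and a limma adjusted p of 0.177. Ndufs3 overlaps an exon of Kbtbd4 on the other strand and has a pseudogene copy, so with a library kit that does not keep the strand some reads may belong to these.

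Ndufs7, which carries the last iron-sulfur cluster before ubiquinone (chromosome 10, 80249121 to 80256794), had 1815, 2130 and 2285 in vehicle and 2406 and 2783 in SR4. The log2 difference was 0.32 (standard error 0.14, limma adjusted p = 0.24). Ndufs8, an iron-sulfur subunit that feeds electrons towards it (chromosome 19, 3908863 to 3912774), had 1824, 2116 and 2249 in vehicle and 2285 and 3033 in SR4. For both genes the groups did not overlap, but the lower SR4 library was close to the highest vehicle library. The Ndufs8 difference was 0.36 (standard error 0.16, limma adjusted p = 0.256).

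In the N module, Ndufv1 binds NADH and the flavin (chromosome 19, 4007384 to 4012806). It had 5281, 5990 and 5696 in vehicle and 6238 and 6967 in SR4, a log2 difference of 0.22 (standard error 0.13, limma adjusted p = 0.366). It was among the 3 subunits on which the SR4 libraries differed least, with Ndufa6 and Ndufa2. Ndufs1, the largest subunit of the matrix arm and the carrier of several iron-sulfur clusters (chromosome 1, 63143596 to 63176833), had 4293, 4295 and 3825 in vehicle and 4332 and 4979 in SR4. Its lower SR4 library was only just above the vehicle range, and the difference was 0.17 (standard error 0.13, limma adjusted p = 0.491). Ndufs1 shares exon sequence with Eef1b2 on the other strand.

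Ndufv2, which holds an iron-sulfur cluster beside the flavin (chromosome 17, 66078638 to 66101559), was the core member whose groups overlapped. It had 2613, 2450 and 2721 in vehicle and 2681 and 3939 in SR4. SR4 library 1 lay inside the vehicle range and SR4 library 2 far above it. The log2 difference was 0.33 with a 95% interval from -0.09 to 0.74 (limma adjusted p = 0.327). The core subunits encoded in mitochondrial DNA were not in the table under the symbols mt-Nd1 to mt-Nd6 and mt-Nd4l.

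The accessory subunits of the N module were on both sides of 0. Ndufs6, a zinc-binding subunit needed to attach the module (chromosome 13, 73319838 to 73328542), had 1298, 1151 and 1321 in vehicle and 963 and 1376 in SR4. SR4 library 1 was the lowest of all 5 libraries and SR4 library 2 the highest. The log2 difference was -0.12 with a 95% interval from -0.52 to 0.27 (limma adjusted p = 0.711). Ndufs6 overlaps Mrpl36 on the other strand and has a pseudogene copy.

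Ndufa6, a LYR-motif protein that anchors an acyl carrier protein to the matrix arm (chromosome 15, 82350140 to 82354322), had 4266, 4023 and 4379 in vehicle and 3803 and 4201 in SR4. The SR4 libraries differed by 0.14, the smallest difference among the 36 genes. The fitted difference was -0.08 (95% interval -0.36 to 0.20, limma adjusted p = 0.744). Ndufa2, which has a thioredoxin-like fold, had 2716, 2677 and 3027 in vehicle and 3059 and 3411 in SR4, with the groups just apart. Its difference was 0.21 (limma adjusted p = 0.368).

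Among the other N module genes, Ndufs4, whose loss in mice causes a model of Leigh syndrome, had a difference of -0.02 and SR4 libraries at 1358 and 2024 around vehicle values of 1531 to 1965. Ndufa7, an accessory subunit of the matrix arm, ran from 1986 to 2430 in vehicle and had 1957 and 2714 in SR4, a difference of 0.05. In both genes the SR4 libraries lay on opposite sides of the vehicle range. Ndufa12, whose place in the complex is held during assembly by Ndufaf2, ran from 946 to 1014 in vehicle and had 997 and 1365 in SR4 (difference 0.26, limma adjusted p = 0.362). Ndufv3, a small subunit that binds beside Ndufv1, ran from 1901 to 2730 in vehicle and had 2536 and 2949 in SR4 (difference 0.32, limma adjusted p = 0.346). For these genes SR4 library 1 was inside the vehicle range. The module's median over 10 genes was 0.19. It was 0.04 in SR4 library 1 alone and 0.28 in SR4 library 2 alone.

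All 5 Q module genes had a fitted difference above 0, with a median of 0.32. For 4 of 5 both SR4 libraries were above the vehicle range (21.1% of all genes), and for 1 of 5, Ndufs3, with equal totals. Besides the 3 core subunits these included Ndufa9, a nucleotide-binding subunit at the junction of the arms, with 3342, 3344 and 3521 in vehicle and 3799 and 4349 in SR4 and a difference of 0.26 (limma adjusted p = 0.269). The exception was Ndufa5, a peripheral subunit of the module, with 1141 in SR4 library 1 against 1139 to 1291 in vehicle and 1740 in SR4 library 2 (difference 0.22, limma adjusted p = 0.53).

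**Figure D3:**
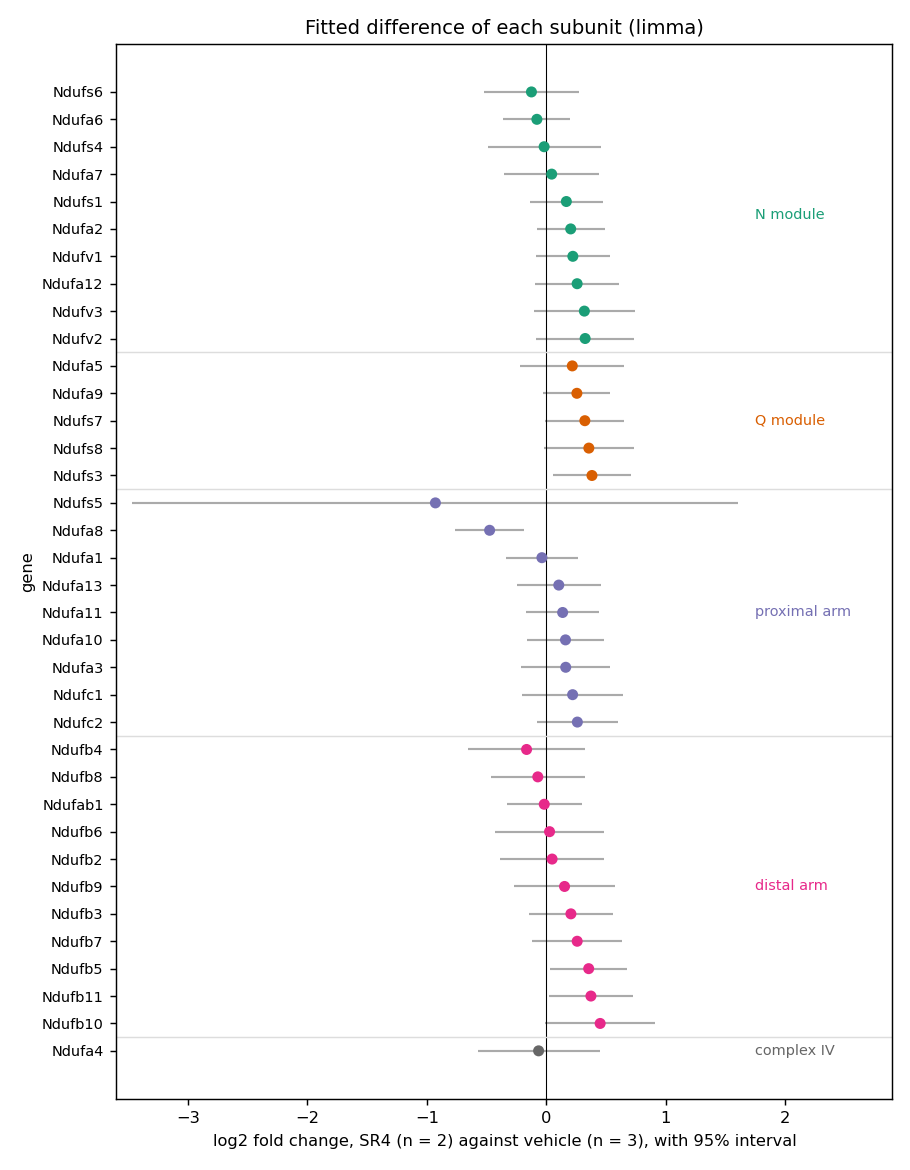
Fitted log2 difference of each gene, SR4 (n = 2) against vehicle (n = 3), on the x axis with its 95% interval from limma, grouped by module on the y axis. The intervals of Ndufs3, Ndufb5 and Ndufb11 lie above 0 and that of Ndufa8 below 0. No adjusted p was under 0.05.

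The distal membrane arm had a median of 0.15 over 11 genes, and the SR4 libraries gave -0.12 and 0.42 when taken alone. Ndufb10, a subunit on the intermembrane space side (chromosome 17, 24722060 to 24724478), had the highest fitted difference of the complex. It had 2586, 2802 and 3401 in vehicle and 3320 and 4774 in SR4. SR4 library 1 was inside the vehicle range and SR4 library 2 well above it. The difference was 0.45 (standard error 0.19, 95% interval -0.01 to 0.91, limma adjusted p = 0.239).

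Ndufb5, a membrane-spanning accessory subunit (chromosome 3, 32736990 to 32751566), had nearly equal vehicle libraries at 2288, 2299 and 2342 and 2592 and 3371 in SR4. The difference was 0.36 (standard error 0.14, limma adjusted p = 0.201). Ndufb11, an X-linked membrane subunit (chromosome X, 20615326 to 20617619), had 3010, 3335 and 3495 in vehicle and 3730 and 4828 in SR4, a difference of 0.37 (standard error 0.15, limma adjusted p = 0.217). In both genes the SR4 libraries were above all vehicle libraries. Ndufb5 overlaps Mrpl47 and Ndufb11 overlaps Rbm10 on the other strand, and Ndufb11 has a pseudogene copy. Mrpl47 itself had a difference of 0.59 (limma adjusted p = 0.17).

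Ndufb4, a small membrane subunit (chromosome 16, 37647170 to 37654453), had the largest difference between the SR4 libraries, 0.70 on the log2 scale. It had 1159, 1046 and 1199 in vehicle and 793 and 1288 in SR4, so the SR4 libraries fell on opposite sides of the vehicle range. The fitted difference was -0.16 (95% interval -0.66 to 0.33, limma adjusted p = 0.686). Ndufb6 (chromosome 4, 40270591 to 40279421) showed the same arrangement, with 1508, 1294 and 1443 in vehicle and 1158 and 1790 in SR4, and a fitted difference of 0.03 that was -0.09 with equal totals (limma adjusted p = 0.948).

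Ndufb8, often used as a protein marker of assembled complex I (chromosome 19, 44548572 to 44555440), had 3218, 3017 and 3752 in vehicle and 2732 and 3648 in SR4. Its difference was -0.07 (95% interval -0.46 to 0.32, limma adjusted p = 0.845), and it shares exon sequence with Gm20538 on the same strand. The remaining distal genes had overlapping groups.

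Ndufab1, the mitochondrial acyl carrier protein, ran from 1305 to 1492 in vehicle and had 1229 and 1538 in SR4, a difference of -0.02. Ndufb2, a small membrane subunit, ran from 1249 to 1383 and had 1084 and 1651, a difference of 0.05. Ndufb9, a LYR-motif protein that binds an acyl carrier protein at the distal arm, ran from 5248 to 5704 and had 5067 and 7419, a difference of 0.15. In these genes, too, SR4 library 1 was below and SR4 library 2 above the vehicle range. Ndufb3, another small membrane subunit, ran from 1020 to 1157 and had 1084 and 1460 (difference 0.21), and Ndufb7, a cysteine-rich subunit of the intermembrane space side, ran from 1858 to 2406 and had 2209 and 2798 (difference 0.26). Their first SR4 library was inside the vehicle range.

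The lowest fitted differences, those of Ndufs5 and Ndufa8, were in the proximal membrane arm, where 6 of 9 genes were above 0. Ndufa8, a cysteine-rich subunit on the intermembrane space side (chromosome 2, 36036326 to 36049406), had 3377, 2948 and 3232 in vehicle and 2145 and 2443 in SR4. Both SR4 libraries were below all vehicle libraries, and it was the only subunit with this arrangement. The means were 3186 ± 218 (SD, n = 3) and 2294 ± 211 (SD, n = 2). The log2 difference was -0.47 with a standard error of 0.12 and a 95% interval from -0.76 to -0.18 (limma unadjusted p = 0.00609, adjusted p = 0.103). It was -0.57 in SR4 library 1 and -0.38 in SR4 library 2 alone. It had no exon overlap with another gene and no pseudogene copy by the criteria used.

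Ndufs5, another cysteine-rich subunit of the intermembrane space side (chromosome 4, 123712710 to 123718202), had 114, 1040 and 127 normalised counts in vehicle and 119 and 141 in SR4. Vehicle library 2 was 8.19-fold the higher of the other vehicle libraries. The fitted difference of -0.93 (standard error 1.01, limma adjusted p = 0.642) rests on that library, and was 0.11 without it. Ndufs5 has a near-identical processed pseudogene, BC002163 (chromosome 16, 42955631 to 42955949, plus strand), which is listed in the table as a gene of its own. The 2 sequences match at 317 of 319 compared bases (99.4%), and they differ by T81C and A105G, with positions counted from 1 at the first coding base of Ndufs5 and the Ndufs5 base first. Coding bases 61 to 210 of Ndufs5 and the matching stretch of the copy are shown because reads from either could be counted for the other, and capitals mark the differing bases (GRCm38).
Ndufs5: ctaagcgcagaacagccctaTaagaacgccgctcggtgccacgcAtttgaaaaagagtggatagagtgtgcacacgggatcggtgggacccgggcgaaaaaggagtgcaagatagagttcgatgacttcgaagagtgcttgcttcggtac
BC002163: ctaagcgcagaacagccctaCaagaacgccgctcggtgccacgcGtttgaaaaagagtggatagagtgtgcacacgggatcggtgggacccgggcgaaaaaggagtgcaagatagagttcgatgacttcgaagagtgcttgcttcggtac

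BC002163 had 1848, 1247 and 2024 in vehicle and 1672 and 2156 in SR4, and was lowest in the library where Ndufs5 was highest. Ndufs5 held 5.80%, 45.5% and 5.90% of the sum of both in the vehicle libraries, and 6.65% and 6.13% in the SR4 libraries. The sums were 1962, 2287 and 2151 in vehicle and 1792 and 2296 in SR4, and overlapped. Fitted as 1 gene, the sum had a difference of -0.07 with a 95% interval from -0.41 to 0.27 (limma adjusted p = 0.816). The value of Ndufs5 alone is therefore uncertain, and 7 other subunit genes had at least 1 pseudogene copy of 95% identity or more over 200 bases.

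**Figure D4:**
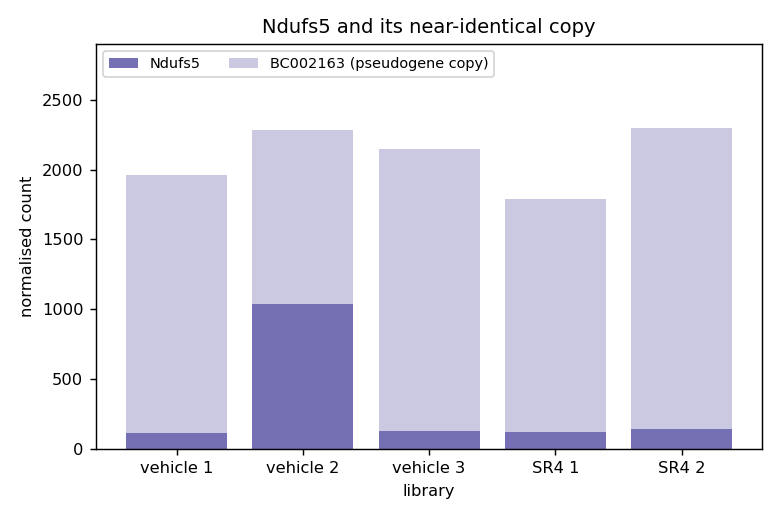
Stacked bars give the normalised counts of Ndufs5 (dark) and its pseudogene copy BC002163 (light) in each of the 5 libraries, from 0. The dark part is 1040 in vehicle library 2 and between 114 and 141 in the other libraries, while the full bars run from 1792 to 2296.

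The other proximal genes had overlapping groups. Ndufa1, an X-linked subunit of the membrane domain, ran from 1616 to 1824 in vehicle and had 1531 and 1868 in SR4, a difference of -0.04. Ndufa13, also known as Grim19, ran from 3531 to 4186 and had 3652 and 4598, a difference of 0.11. Ndufa11, a membrane subunit at the contact with complex III in supercomplexes, ran from 1526 to 1639 and had 1537 and 1934, a difference of 0.14. In each of them SR4 library 2 was the highest of the 5 libraries.

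Ndufa10, a matrix-side subunit with a nucleoside kinase fold, ran from 4720 to 5561 and had 5314 and 6084, a difference of 0.16. Ndufa3 ran from 1891 to 2098 and had 1872 and 2614, a difference of 0.16. The membrane subunits Ndufc1 and Ndufc2, which bind next to each other, had 736 and 1111 (vehicle 748 to 795) and 1634 and 2105 (vehicle 1423 to 1667), with differences of 0.22 and 0.26. Again SR4 library 2 was above the vehicle range in each. The median of the arm's 9 genes was 0.14. Ndufa4, first described as a complex I subunit and later assigned to complex IV (chromosome 6, 11900292 to 11907497), had 7103, 5803 and 5814 in vehicle and 4730 and 7467 in SR4. Its SR4 libraries were the lowest and the highest of all 5, and its difference was -0.06 (95% interval -0.57 to 0.45, limma adjusted p = 0.893). Without Ndufa4 the median of the remaining 35 genes was also 0.17.

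Levels of different genes were compared per 1000 bases of transcript. In vehicle livers they ran from 536 normalised counts per 1000 bases for Ndufb2 to 13566 for Ndufa4, with a median of 2529. The transcript length assumed for Ndufb2, 2413 bases, is uncertain. Ndufab1, at 569 per 1000 bases in vehicle, had a similar assumed length of 2447.5 bases. The vehicle level of Ndufs5, 713 per 1000 bases, is uncertain too, since its reads could be counted for the pseudogene copy. The order of the 36 genes in vehicle and SR4 was close (Spearman rho 0.956 across genes, which are not independent replicates and share lengths).

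Promoter sequences from RefSeq (GRCm38.p6, 250 bases before to 50 after the start) matched 33 of the 36 genes. Nuclear respiratory factor 1 is a known activator of respiratory chain genes. Its motif GCGCANGCG, read on both strands, was in 8 of 33 subunit promoters (24.2%) and in 7.03% of 27025 genes. The 27025 genes include many that were not tested here. Among the tested genes with a promoter sequence, 1272 had a match and 6714 did not, a larger share than 7.03%. The YY1 motif AANATGGCG was in 7 of 33 (21.2%) and in 2.76% of genes. The YY1 matches in Ndufa9, Ndufc1, Ndufs4, Ndufs6 and Ndufs7 lay at or after the RefSeq start site. So did the NRF1 matches in Ndufa6 and Ndufb10. For YY1 and the motifs below, shares among the tested genes were not computed. The ETS motif CCGGAAGT was in 1 of 33 (3.03% against 4.31%), and the ERR motif TCAAGGTCA in 0 of 33 (0.466% of genes). A match describes letters and does not show binding. The stretches for Ndufa8 (chr2:36049339-36049392, minus strand), the gene with the smallest p, and Ndufs6 (chr13:73328483-73328522, minus strand) are shown with the NRF1 matches in capitals. That for Ndufb11 (chrX:20617797-20617855, minus strand) is shown with its YY1 match in capitals. All lie before the RefSeq start. By the gene coordinates given above, which are from another annotation, the Ndufa8 and Ndufs6 stretches lie inside the gene.
Ndufa8: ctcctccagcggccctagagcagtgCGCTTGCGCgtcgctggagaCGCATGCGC
Ndufs6: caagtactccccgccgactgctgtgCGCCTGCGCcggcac
Ndufb11: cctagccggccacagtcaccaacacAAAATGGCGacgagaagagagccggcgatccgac

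Genes that work with complex I were described from lists chosen with earlier results of these data known. None of the 15 complex I assembly factors in the table was called. Their median difference was 0.24, with 0.05 and 0.29 in SR4 libraries 1 and 2 alone. SR4 library 2 was above SR4 library 1 for 15 of 15 (49.3% of all genes). For 7 of 15 both SR4 libraries were above the vehicle range (21.1% of all genes). With equal totals this count was not computed for the assembly factors, and for the subunits it fell from 9 to 1. Ndufaf7, a methyltransferase needed for assembly, had 457, 405 and 438 in vehicle and 501 and 638 in SR4, a difference of 0.38 (limma adjusted p = 0.191). Ecsit, needed for membrane arm assembly, had 955, 1214 and 1360 in vehicle and 1416 and 1633 in SR4, a difference of 0.39 (limma adjusted p = 0.242).

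For complexes II to V, 0 of 41 genes were called and the median difference was 0.17. SR4 library 2 was above SR4 library 1 for 40 of 41 (49.3% of all genes), and the libraries alone gave medians of 0.00 and 0.38. The 2 genes with the smallest p were Sdhb, the iron-sulfur subunit of succinate dehydrogenase, with 0.53 (limma adjusted p = 0.151), and Sdhc, its membrane anchor, with 0.34 (limma adjusted p = 0.201). Mitochondrial ribosomal proteins, which serve the translation of subunits encoded in mitochondrial DNA, had 0 of 77 genes called and a median of 0.17, with 0.01 and 0.27 in the SR4 libraries alone. Among them Mrpl24 had 0.49 (limma adjusted p = 0.103) and Mrpl27 0.36 (limma adjusted p = 0.113). The complex I median of 0.17 was thus close to those of the other respiratory complexes and of the mitochondrial ribosome.

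Cytosolic ribosomal proteins had 0 of 83 tested genes called and a median of 0.06. SR4 library 2 was above SR4 library 1 for 67.5% of them, with Rps26 at 0.35 (limma adjusted p = 0.151) and Rps28 at 0.40 (limma adjusted p = 0.154). Of 13 regulators of respiratory gene transcription, 0 were called. Nrip1, a corepressor of oxidative genes, had 231, 198 and 164 in vehicle and 105 and 103 in SR4, with the groups apart. Its difference was -0.91 (95% interval -1.39 to -0.42, limma adjusted p = 0.0816). Ppargc1a, a coactivator of mitochondrial biogenesis, had 159, 265 and 173 in vehicle and 410 and 271 in SR4, a difference of 0.78 (limma adjusted p = 0.18). For these regulators SR4 library 2 was above SR4 library 1 for 5 of 13, and the libraries alone gave medians of 0.09 and 0.07.

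**Figure D5:**
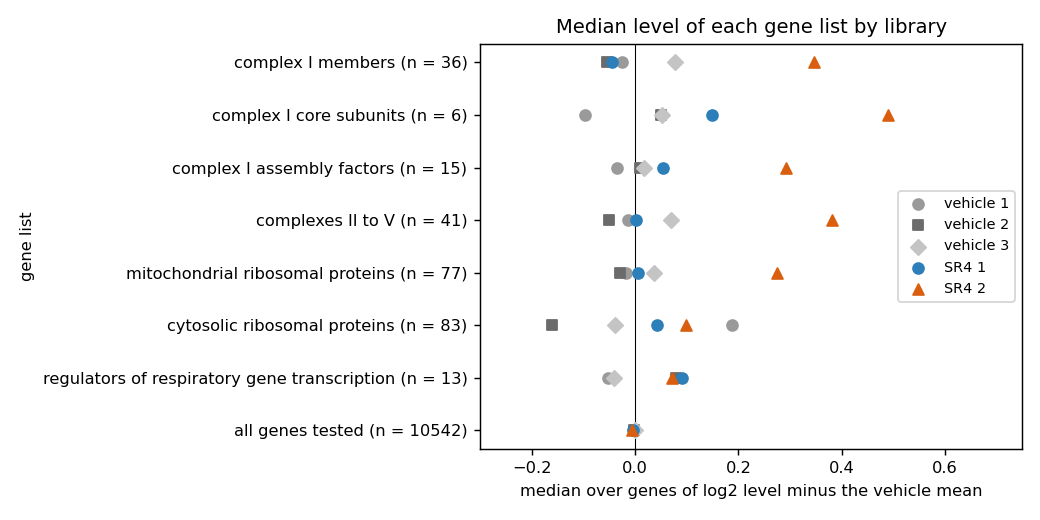
Median over the genes of each list (y axis, with the number of genes) of the log2 level minus the vehicle mean (x axis), for each of the 5 libraries. SR4 library 2 lies at 0.35 for the complex I genes and at 0.38 for complexes II to V, while SR4 library 1 lies at -0.04 and 0.00.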

How the data were processed

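Liver RNA was sequenced in 5 samples, grouped by treatment label. Per the labels' protocols, libraries were made with TruSeq RNA V2 reagents, a kit without strand information. TopHat2 2.1.1, Partek and GRCm38 (mm10) are named, per the submitters' processing notes. How genes were counted, with which annotation and filter, is not given in the sources used here.

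The deposited signal values are gene read counts that were adjusted to a common library size, as the values themselves show, since the 5 columns have equal sums within 0.00116% and are not whole numbers. Library sizes were estimated from 24 patterns of low values. From 11065 lines, 17 whose symbol had become a date (0.177% of counts) were left out. Values were divided by TMM factors, genes with at least 10 in at least 2 libraries were kept, and limma 3.58.1 (R 4.3.3; mean trend, robust) was fitted to log2(value + 1). P-values were adjusted by Benjamini-Hochberg over all genes tested. The procedure was tested on simulated data in which genes varied independently. The changes put in were larger than the fitted difference of any subunit. That run therefore does not cover differences of the size seen here, nor a shift shared by many genes. Coordinates, lengths and pseudogene copies are from GENCODE M21 (GRCm38), and lengths are medians over basic coding transcripts. Python was 3.11.15.

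Members and lists were chosen with earlier results of these data known. Genes with per-library values were those with the 6 smallest p above and below 0, core subunits, the 3 largest and 3 smallest differences between SR4 libraries, Ndufa4, and up to 2 genes of each other list. A gene that this rule named is not reported here. The remaining members were outside this rule and were given so that all 36 are accounted for, by the vehicle range with both SR4 values or in each library (Ndufa9), and this form was chosen after their values were seen. Alternatives were other scalings, pseudocounts and filters, limma-voom, a fit without robust shrinkage, a replicate block, and leaving out each library. Summing Ndufs5 with its copy was added after seeing the data.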

Additional observations from a re-analysis of the deposited data

How the results depend on the processing

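No complex I gene was called under any alternative, and the smallest adjusted p ran from 0.0733 (equal totals) to 0.230 (without SR4 library 2). The median difference was 0.0473 with equal totals, where the median of all genes was -0.126, and ran from -0.0446 (without SR4 library 2) to 0.352 (without SR4 library 1) with a library left out. The number of subunits with SR4 outside the vehicle range was 10, and 3 with equal totals (1 above, Ndufs3, and 2 below, Ndufa6 and Ndufa8), where 43.9% of all genes were outside. It ran from 11 to 33 with a library left out, where smaller groups separate more easily (49.9% to 69.8% of all genes, against 41.5% with all libraries). With Ndufs5 summed with BC002163, 10 were outside the range.

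Of 464 other values for named genes, 453 kept their direction and side of the threshold and 11 changed sign. The 464 include the filter and shrinkage settings, which cannot change a fitted difference, so the count of unchanged signs is partly fixed in advance. With equal totals, Ndufb6 was -0.091. With a library left out, Ndufa4 ran from -0.39 to 0.27, Ndufb4 from -0.51 to 0.19, Ndufb6 from -0.29 to 0.35, Ndufb8 from -0.28 to 0.14, Ndufs5 from -1.48 to 0.11 and Ndufs6 from -0.38 to 0.14. The cause was not tested. Ndufa8 ran from -0.57 to -0.38.

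With the replicate block, in which samples with the same number are paired, 0 subunits were called, the median was 0.217 and Ndufb8 was 0.019. The block gave 398 calls over all genes against 140. Only 2 numbers are shared by the groups, with correlations of deviations of 0.174 and 0.114. Between libraries of unlike number they were -0.114 and -0.174. With 2 SR4 libraries the deviations mirror each other, so these values cannot decide whether samples were paired. The numbers were taken as names. Calls over all genes also depended on the libraries, with 8 without vehicle library 2, 5 without vehicle library 3, 7 without SR4 library 2, 183 without SR4 library 1 and 43 with limma-voom. Count-model tests on recovered reads were not run, since the values were not whole reads. With 2 SR4 libraries, leaving out either makes the other assumed to vary like the vehicle libraries.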

Other observations

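The 8 subunit genes with the NRF1 motif letters in their promoter window (Ndufa5, Ndufa6, Ndufa8, Ndufa11, Ndufb4, Ndufb10, Ndufs5 and Ndufs6) included the 5 lowest fitted differences of the complex (Ndufs5, Ndufa8, Ndufb4, Ndufs6 and Ndufa6) and the highest (Ndufb10). Of these 8, 5 had a difference below 0 and the median was -0.10. These were 3 of 8 and 0.16 without SR4 library 1, 7 of 8 and -0.27 without SR4 library 2, and 4 of 8 and 0.00 without vehicle library 2. Of the 25 genes with a promoter sequence and no match, 5 were below 0 and the median was 0.22. These were 0 and 0.41, 12 and 0.03, and 7 and 0.20 without the same libraries in turn. With equal totals, 5 of 8 genes with a match and 9 of 25 without were below 0, with medians of -0.22 and 0.10. Over all genes tested, 49.4% of 1272 genes with a match and 51.3% of 6714 without were below 0, with medians of 0.00 and -0.01. This arrangement was noticed after the values were seen, no test was made, and Ndufs5 is the gene whose reads could be shared with a pseudogene. Summed with BC002163, Ndufs5 was at -0.0699. Ndufb8, which is not among the 8, was at -0.0705, so the 5 lowest would then not all have a match.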
